A study of Arabidopsis thaliana with 4 samples.

Results

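The type-A ARR genes of Arabidopsis thaliana are the 10 genes ARR3 to ARR9 and ARR15 to ARR17, taken by their locus identifiers. Their values did not enter that rule, but earlier results of these data were known when the list was chosen. They encode the short response regulators of the cytokinin pathway. Each of the 10 genes was read by 1 spot on every array, among 29030 genes with a locus identifier on the array design. Of these, 9 of the 10 type-A ARR genes and 22690 genes in all were bright enough to be tested.

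Transcripts of Col0 plants that shared the air space of an upright plate with Pseudomonas syringae DC3000 were compared with those of Col0 plants on plates without the bacterium. DC3000 is a pathogen of tomato and Arabidopsis, and the question asked was which transcripts respond to microbial volatile compounds (mVOC) without contact. By the design text plants grew for 8 days and were exposed for 12 hours, whereas the sample labels say 12 days, and no source used here settles which holds. Each of 4 two-colour arrays held exposed RNA in the red dye Cy5 and control RNA in the green dye Cy3, with no dye swap, so that dye bias and exposure cannot be told apart.

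Cytokinins are adenine-derived hormones that promote cell division in shoots, restrain root growth, and delay leaf senescence. Histidine kinase receptors pass a phosphoryl group through phosphotransfer proteins to response regulators in the nucleus. The type-B regulators are transcription factors that switch on the type-A genes, and the type-A proteins, which have a receiver domain but no DNA-binding domain, dampen the signal again. Type-A transcripts are therefore widely read as markers of recent cytokinin signalling, and in leaves cytokinin is also known to strengthen salicylic acid defence against DC3000.

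The 4 arrays differed in brightness. The median over gene spots was 1286 scanner units in the exposed channel and 575.5 units in the control channel of array 4, while on the other arrays it was 336 to 373 units in the exposed channel and 292 to 362.5 units in the control channel. Per the file headers, 1 slide carried arrays 1 and 2 and a second slide carried arrays 3 and 4. Over all tested genes, Pearson's r between the log2 ratios was 0.648 to 0.779 among arrays 1 to 3 and 0.22 to 0.288 between array 4 and each of them, where genes are not independent points. On 33 probes spotted at least 5 times, arrays 1 to 3 differed by a median SD of 0.0473 on the log2 scale, where the spread of the spots within an array gives 0.0528. The labels do not say that the arrays came from separate plants, so the p-values cover only array-to-array spread, which may be technical. For the genes named below, calls that change when array 4 is left out are given both ways. In the fit without array 4, 31.1% of all tested genes were called.

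No type-A ARR gene was called as changed in exposed plants. In limma 0 of the 9 tested genes had an adjusted p below 0.05, against 3.40% of all tested genes, and 1 of the 9 had an unadjusted p below 0.05, against 24.8% of all tested genes. The fitted log2 ratios of exposed over control lay between -0.13 for ARR7 and 0.26 for ARR3, with a median of 0.086 beside -0.005 over all tested genes. Of the 9 genes, 7 had a ratio above 0, as did 49% of all tested genes. The 95% intervals of these 9 genes jointly ran from 0.801-fold to 1.34-fold on this scale, in which an offset of 50 units draws the ratios of dim spots toward 1. In such bulk RNA, fewer cells of a type and less RNA per cell cannot be told apart.

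**Figure D1:**
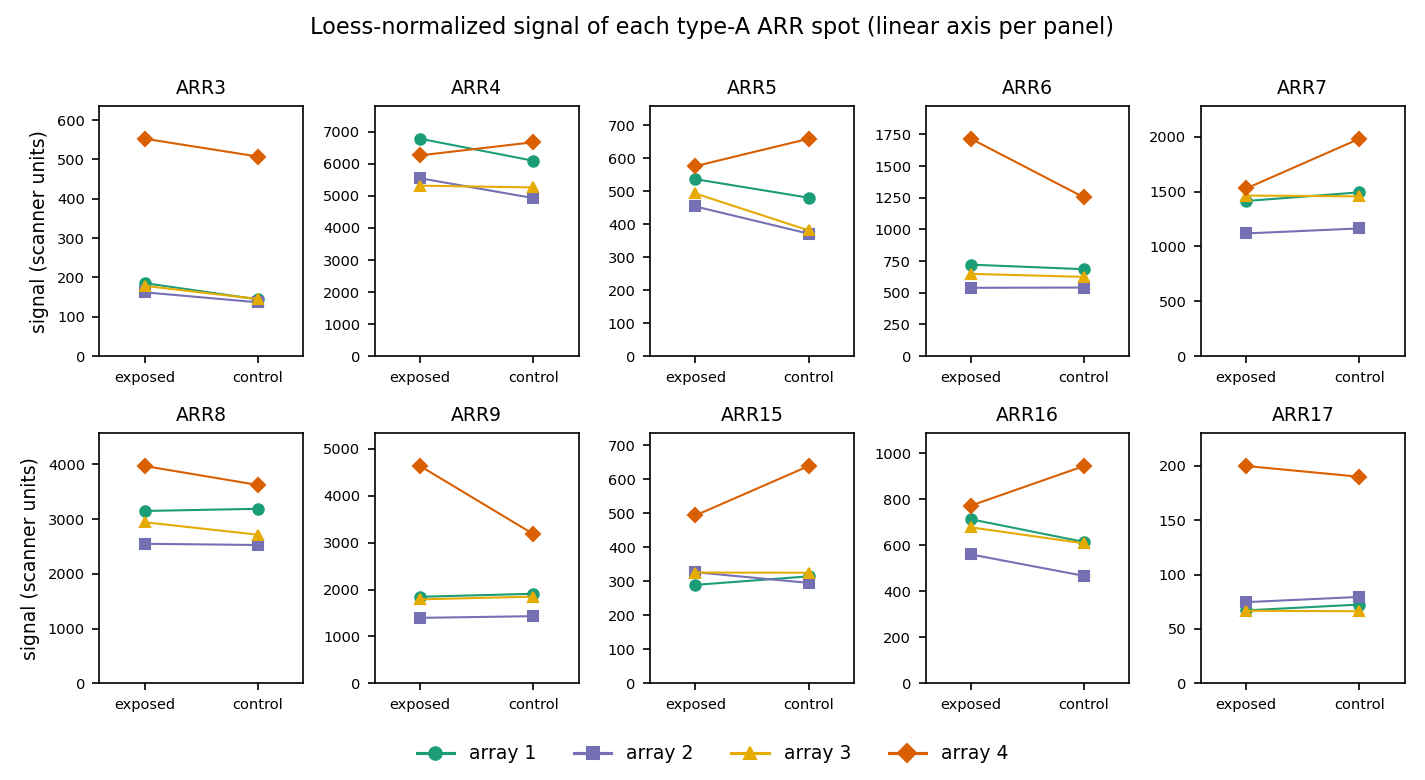
Loess-normalized signal of the 10 type-A ARR spots in the exposed and control channels, in scanner units on a linear axis that starts at 0 and differs between panels; each line joins the 2 channels of 1 array. Array 4 stands far above the other arrays in both channels for ARR3, ARR6, ARR9 and ARR17, and its line slopes the other way from those of arrays 1 to 3 for ARR4, ARR5, ARR9 and ARR16.

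ARR3 (AT1G59940) and ARR4 (AT1G10470) form a pair of close paralogs, of which ARR4 is also known to bind the light receptor phytochrome B. ARR3 was the only tested member that was higher in the exposed channel on all 4 arrays, a pattern of 1 sign shown by 38% of all tested genes. Its normalized signal was 185.5, 162, 178.4 and 552.6 units in the exposed channel of arrays 1 to 4, against 144.1, 136.7, 145.1 and 507.2 units in the control channel. The log2 ratios were thus 0.36, 0.24, 0.30 and 0.12, with a fitted fold of 1.20 (log2 ratio 0.26 ± 0.067 SE, n = 4, limma adjusted p = 0.0856). ARR3 was also a dim spot, at 165 to 186 raw units in Cy5 on arrays 1 to 3 and 129 to 154 in Cy3. Without array 4 it was called, at 1.23-fold (limma adjusted p = 0.00101, where 31.1% of all tested genes were called), and by the scanner software's own log ratio it was called at 1.37-fold (limma adjusted p = 0.0481, where 4.97% of all tested genes were called).

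ARR4 read 6789, 5555, 5323 and 6268 units in the exposed channel, against 6100, 4934, 5266 and 6679 units in the control channel. It was above its control on arrays 1 to 3 and below it on array 4. The fitted log2 ratio was 0.062 ± 0.071 (SE, n = 4, limma adjusted p = 0.611), or 0.11 without array 4 (limma adjusted p = 0.16). Within each array ARR3 had the higher log2 ratio of the pair, by 0.21, 0.074, 0.28 and 0.22 on arrays 1 to 4. The mean difference was 0.20 ± 0.088 (SD, n = 4), with an exact two-sided sign-flip p of 0.125, the smallest that 4 arrays allow (0.5 adjusted over the 4 pairs tested).

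ARR5 (AT3G48100) and ARR6 (AT5G62920) are rapidly induced by cytokinin, and the ARR5 promoter is a common reporter of the hormone in root tips and shoots. ARR5 read 536.5, 453.8, 493.1 and 576.1 units in the exposed channel, against 480.3, 371.2, 381.1 and 659.3 units in the control channel. It was therefore higher in exposed plants on arrays 1 to 3, with log2 ratios of 0.16, 0.29 and 0.37, and lower on array 4, at -0.20. With all arrays the fold was 1.11 (log2 ratio 0.16 ± 0.10 SE, n = 4, limma adjusted p = 0.378), with a mean of 0.23 on the slide of arrays 1 and 2 and 0.089 on that of arrays 3 and 4. Without array 4 ARR5 was called, at 1.21-fold (limma adjusted p = 0.00286), as were 31.1% of all tested genes. ARR6 had log2 ratios of 0.073, -0.005 and 0.053 on arrays 1 to 3 and was higher in exposed plants on array 4, at 0.45. Its fitted value was 0.14 ± 0.091 (SE, n = 4, limma adjusted p = 0.365), or 0.040 without array 4 (limma adjusted p = 0.629). The difference of ARR5 minus ARR6 was 0.086, 0.30 and 0.32 on arrays 1 to 3 and -0.65 on array 4 (mean 0.013, exact two-sided sign-flip p = 1, n = 4).

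ARR7 (AT1G19050) and ARR15 (AT1G74890) are repressed in the shoot meristem by the stem cell regulator WUSCHEL. They had the only fitted ratios below 0 among the 9 genes. ARR7 read 1415, 1119, 1465 and 1529 units in the exposed channel, against 1494, 1164, 1457 and 1983 units in the control channel. The channels were thus close on arrays 1 to 3, with log2 ratios of -0.078, -0.058 and 0.008, and apart on array 4, at -0.37. The fitted value was -0.13 ± 0.081 (SE, n = 4, limma adjusted p = 0.374), or -0.043 without array 4. ARR15 had log2 ratios of -0.12, 0.15, 0.002 and -0.37 (fitted -0.086 ± 0.094 SE, n = 4, limma adjusted p = 0.594), and 0.009 without array 4. The 2 genes differed by 0.041, -0.20, 0.005 and -0.003 within the arrays (ARR7 minus ARR15, mean -0.040, exact two-sided sign-flip p = 0.875, n = 4), so that both lay together on array 4.

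ARR8 (AT2G41310) and ARR9 (AT3G57040) are the pair whose transcripts respond less strongly to cytokinin than those of ARR5 or ARR7. ARR8 had the smallest spread of the tested members, with log2 ratios of -0.018, 0.013, 0.12 and 0.13 (fitted 0.061 ± 0.063 SE, n = 4, limma adjusted p = 0.573). ARR9 had the widest. It read 1844, 1396, 1790 and 4631 units in the exposed channel, against 1909, 1432, 1849 and 3182 units in the control channel. On arrays 1 to 3 its log2 ratios of -0.050, -0.037 and -0.047 agree within an SD of 0.007, the lowest of the 9 members over these arrays, while array 4 gave 0.54. The fitted log2 ratio was 0.10 ± 0.11 (SE, n = 4, limma adjusted p = 0.606), or -0.044 without array 4 (limma adjusted p = 0.589). The difference of ARR8 minus ARR9 was 0.032, 0.049, 0.16 and -0.41 (mean -0.041, exact two-sided sign-flip p = 1, n = 4).

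ARR16 (AT2G40670) and ARR17 (AT3G56380) are the most divergent pair, and both have been linked to the root's bending toward water. ARR16 read 714, 560.9, 678.8 and 773.2 units in the exposed channel, against 615.2, 467.6, 609.1 and 945.6 units in the control channel. As for ARR5, its exposed channel was the brighter on arrays 1 to 3, with log2 ratios of 0.21, 0.26 and 0.16, and the dimmer on array 4, at -0.29. The fold was 1.06 with all arrays (log2 ratio 0.086 ± 0.10 SE, n = 4, limma adjusted p = 0.631). Without array 4 ARR16 was called, at 1.16-fold (limma adjusted p = 0.0113), as were 31.1% of all tested genes. By slide its mean was 0.24 for arrays 1 and 2 and -0.067 for arrays 3 and 4. ARR17 was well above background in the exposed channel on 2 arrays and in the control channel on 1, and was not tested. Its raw signal on arrays 1 to 3 was 66 to 72 units in Cy5 and 74 to 84 units in Cy3, and its log2 ratios were -0.11, -0.089, 0.01 and 0.074.

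**Figure D2:**
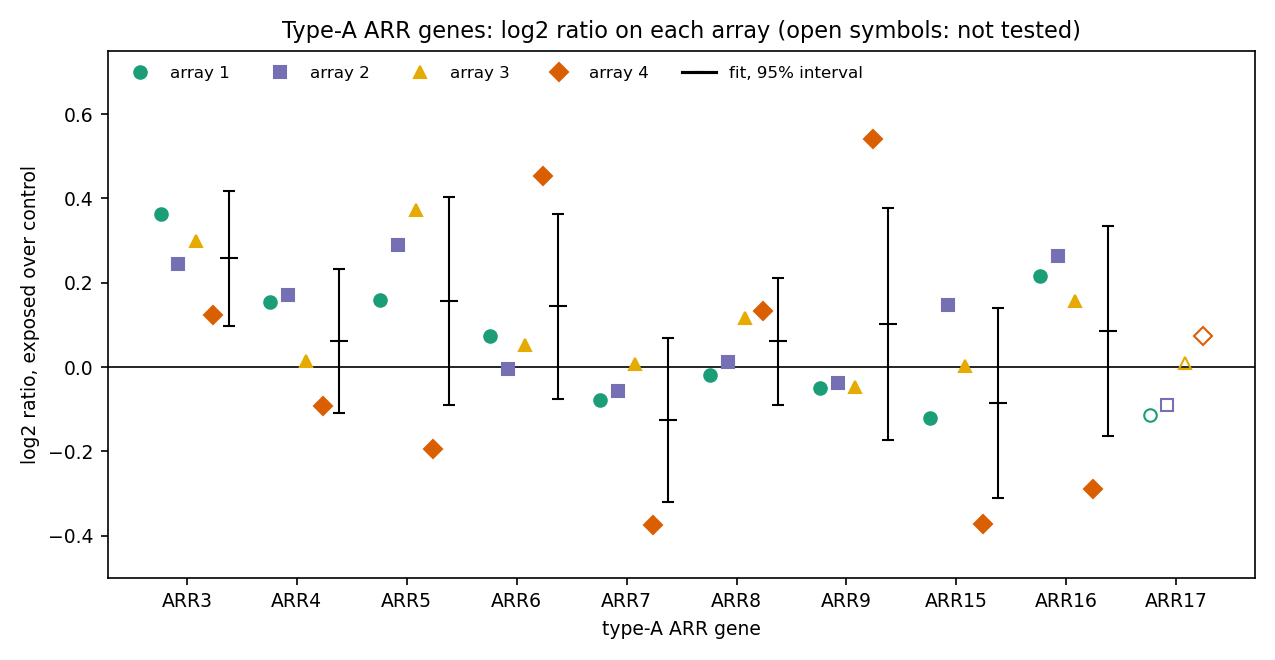
Log2 ratio of exposed over control for each type-A ARR gene on each of the 4 arrays, with the fitted value and its 95% interval in black (n = 4 arrays); open symbols mark ARR17, which was not tested. Only for ARR3 does the interval lie above 0 (0.097 to 0.42), and array 4 gives the lowest value for ARR3, ARR4, ARR5, ARR7, ARR15 and ARR16 and the highest for ARR6, ARR8 and ARR9.

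Without array 4, ARR3, ARR5 and ARR16 were called higher and none lower, or 3 of 9 (33.3%). This share was near that of all tested genes, of which 31.1% were called in either direction without array 4. Of all tested genes, 16.8% were called higher and 14.3% lower in exposed plants. The median log2 ratio of the 9 genes was then 0.040, beside 0.008 over all tested genes. When limma weighted the arrays by their agreement, with a weight of 0.155 for array 4, ARR4 was called as well (limma adjusted p = 0.0494), and 36.5% of all tested genes were called. With arrays 1 to 3 averaged to 1 sample beside array 4, limma called 0 of 22641 tested genes (0%), and so 0 of the 9. An unadjusted p below 0.05 was held by 0 of the 9 and by 5.82% of all tested genes in that fit, and such counts say nothing particular about the 9 genes.

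The spread of the members across arrays came mostly from array 4. The SD over the 4 arrays had a median of 0.21 among the 9 genes and 0.15 among all tested genes, and over arrays 1 to 3 the medians were 0.059 and 0.093. Array 4 differed from the mean of arrays 1 to 3 by a median size of 0.38 for the 9 genes, beside 0.23 for all tested genes, in either direction (-0.50 for ARR16 to 0.59 for ARR9). No test was made of this difference.

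**Figure D3:**
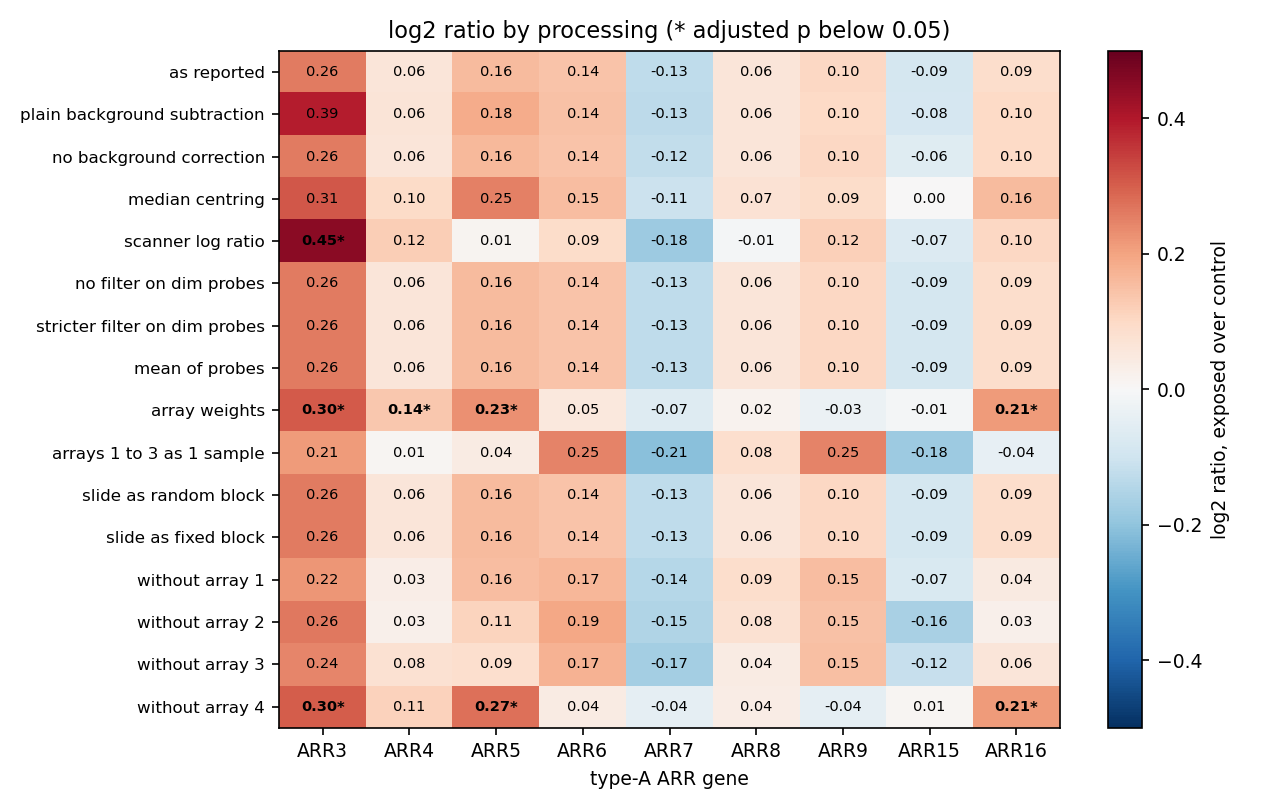
Log2 ratio of exposed over control for the 9 tested type-A ARR genes (columns) under the reported processing and 15 alternatives (rows), in colour and as a number, with an asterisk where the limma adjusted p was below 0.05. The calls stand in 3 rows: the scanner log ratio (ARR3), array weights (ARR3, ARR4, ARR5, ARR16) and without array 4 (ARR3, ARR5, ARR16).

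The rest of the cytokinin pathway was read from 9 further lists holding 69 genes, of which 58 were tested. AHK3, a cytokinin receptor that acts in leaves, fell, and ST4B, a sulfotransferase gene induced by cytokinin, rose, while the other 56 genes were not called. The share called was 3.45%, beside 3.40% of all tested genes, and the median log2 ratio was -0.022. Without array 4, 12 were called higher and 4 lower, or 27.6%, beside 31.1% of all tested genes.

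Among the receptors, AHK3 had log2 ratios of -0.35, -0.30, -0.33 and -0.39, a fall of 1.27-fold (limma adjusted p = 0.0406, n = 4). A second AHK3 probe gave 0.11, and with the mean of both probes the log2 ratio was -0.12 and not called (limma adjusted p = 0.377). The call was also lost with median centring (0.234), the scanner log ratio (0.0585), no filter (0.0598), the slide as a fixed block (0.0684), arrays 1 to 3 as 1 sample (0.631), and without array 1, 2 or 3 (0.234, 0.2 and 0.244). In each of those last 3 fits limma called 0 of 22690 genes (an unadjusted p below 0.05 was held by 3580, 3873 and 3494), so that every call was lost there whatever its size. AHK2 was at -0.17 and AHK4 at -0.090, with a second AHK4 probe at -0.24. None of 6 phosphotransfer protein genes was called, the nearest being AHP1 at 0.30 (limma adjusted p = 0.0639, n = 4) and AHP3 at 0.24 (limma adjusted p = 0.0859, n = 4). AHP1 was above 0 on all 4 arrays (0.18, 0.27, 0.36 and 0.41), and both genes were called without array 4 (limma adjusted p of 0.00286 and 0.00292). AHP1 was also called with the mean of its probes (0.35, limma adjusted p = 0.0431), the scanner log ratio (0.0461) and array weights (0.00193). These fits called 3.11%, 4.97% and 36.5% of all tested genes. A second AHP1 probe gave 0.39 and a second AHP3 probe gave 0.

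None of 7 tested type-B regulators, which bind the promoters of type-A genes, was called. ARR1 had the lowest p (log2 ratio 0.16, limma adjusted p = 0.16, n = 4), with a second probe at -0.04, and was called without array 4 (0.17, limma adjusted p = 0.0318), while ARR10 was at -0.12. The list median was 0.004, and of 11 type-B genes the other 4 were too dim to be tested. The type-C gene ARR22 was at -0.063, from a dim probe. That probe was well above background on 1 array in the exposed channel and on 3 in the control channel. Over the alternatives the ARR22 log2 ratio ran from -0.97 (scanner log ratio) to 0.32 (no filter). All 6 tested cytokinin response factor genes, which encode transcription factors of the AP2/ERF family, had fitted ratios below 0, as did 51% of all tested genes, and none was called. The shared sign rested on array 4: without it CRF1 was at 0.015, CRF5 at 0.049 and CRF6 at 0.12, and the list median was -0.036, beside -0.15 with all arrays. Of the 6, CRF2 was at -0.29 (limma adjusted p = 0.0867, n = 4) and CRF4 at -0.41 (limma adjusted p = 0.16, n = 4). CRF4 had log2 ratios of -0.082, -0.30 and -0.24 on arrays 1 to 3 and -0.999 on array 4. Without array 4, CRF2 (-0.23, limma adjusted p = 0.00856) and CRF4 (-0.21, limma adjusted p = 0.016) were called lower.

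Of 15 tested genes of cytokinin synthesis none was called. The nearest were IPT9, a tRNA-modifying enzyme gene (0.25, limma adjusted p = 0.0936, n = 4), and LOG5, of the family that releases the active free bases (-0.32, limma adjusted p = 0.111, n = 4). IPT9 was at 0.19, 0.20 and 0.19 on arrays 1, 2 and 4 and at 0.43 on array 3, and its other probes gave 0.04 and 0.14. Without array 4, 5 of the 15 synthesis genes were called higher and 1 lower (40%), beside 31.1% of all tested genes. Among those called were IPT9 (0.27, limma adjusted p = 0.00359) and LOG5 (-0.22, limma adjusted p = 0.0135). Of 9 tested genes of breakdown and conjugation none was called, with the cytokinin oxidase gene CKX3 at 0.25 and the glycosyltransferase gene UGT76C1 at 0.21. Without array 4, 3 of these 9 genes were called higher (33.3%), again beside 31.1% of all tested genes. Among the 3 were CKX3 at 0.20 and UGT76C1 at 0.22 (limma adjusted p of 0.0195 and 0.0138). CKX3 was also called with the scanner log ratio (0.42, limma adjusted p = 0.0316), where 4.97% of all tested genes were called. Of 7 transport genes none was called, with the purine permease genes PUP1 at -0.23 and PUP2 at 0.21. A second PUP1 probe gave -0.1 and a second PUP2 probe gave -0.04.

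Among 8 other genes known to be induced by cytokinin, ST4B was at 0.54, 0.61, 0.72 and 0.44 on arrays 1 to 4, higher in exposed plants on each of them. This is a rise (log2 ratio 0.58 ± 0.070 SE, n = 4, limma adjusted p = 0.0214). The log2 ratio stayed between 0.53 and 0.64 under all 15 alternatives. The call was lost in the 3 fits without array 1, 2 or 3, which called no gene (limma adjusted p of 0.176, 0.184 and 0.228), with the slide as a fixed block (0.0583) and with arrays 1 to 3 as 1 sample (0.631). The other 7 genes were not called, among them UGT76C2 (0.11) and SHY2 (-0.094), the auxin repressor gene through which cytokinin acts in roots, and the list median was -0.020.

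**Figure D4:**
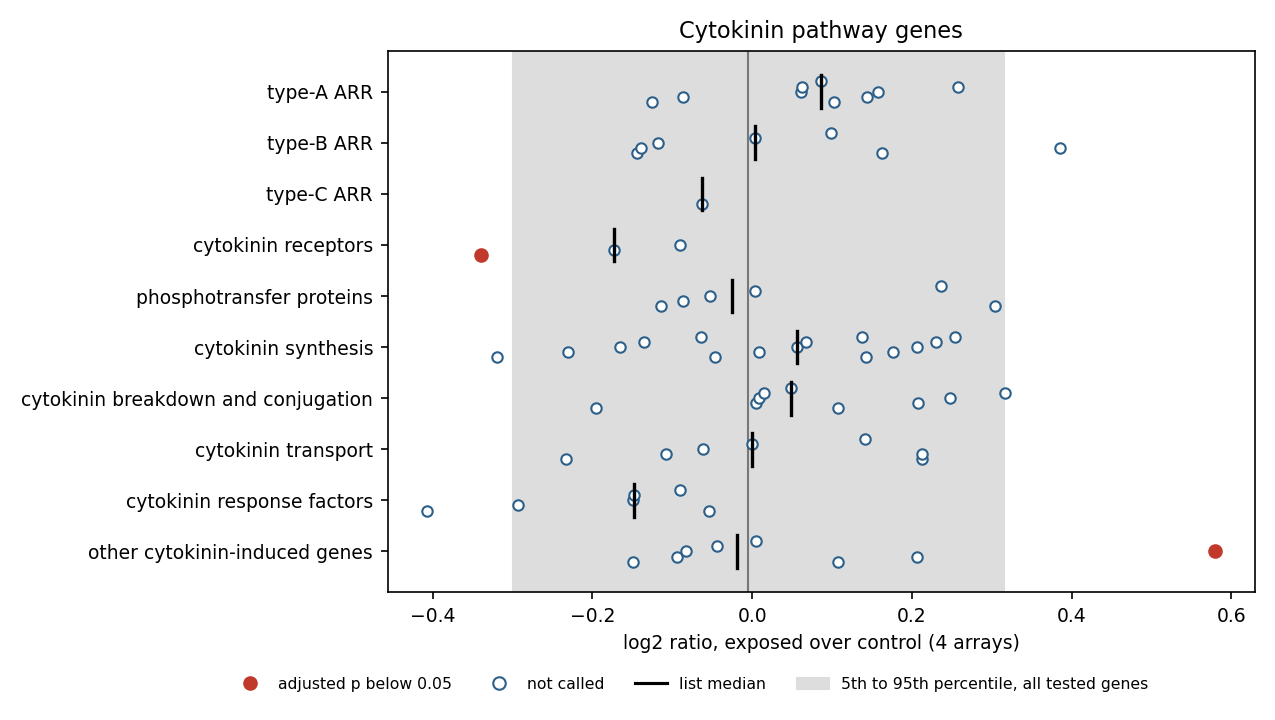
Log2 ratio of exposed over control for each tested gene of the type-A list and the 9 other cytokinin lists, fitted over 4 arrays; filled points have a limma adjusted p below 0.05, black bars are list medians and the grey band holds the 5th to 95th percentile of all tested genes (-0.30 to 0.32). All 9 type-A genes lie inside the band, and the 2 filled points are AHK3 and ST4B.

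The labels name no tissue, and markers of both root and shoot were bright on these arrays. Of 8 root markers, all tested, 2 rose, namely PYK10, a root beta-glucosidase gene (log2 ratio 0.61), and PRP3, a root hair gene (log2 ratio 0.44). The share called was 25% of the root markers and 33.3% of the tested shoot markers, beside 3.40% of all tested genes. The root list had 6 genes above 0 and 2 below, with a median of 0.23 and a lowest value of -0.073. The summed signal of the 8 root markers was 202753 to 258784 units in the exposed channel and 144217 to 164985 units in the control channel. Bright genes weigh most in such a sum. By array, the median log2 ratio of the 8 root markers was 0.21 to 0.29. CASP1 (0.27) and COBL9 (0.57) were not called with all arrays and were called without array 4 (0.28 and 0.38, limma adjusted p of 0.00146 and 0.000235). In that fit 31.1% of all tested genes were called. Of 6 tested shoot markers, RBCS1A (log2 ratio 0.49) and LHCB1.3 (log2 ratio 0.50) rose, with other probes of RBCS1A between -0.03 and 0.62, of LHCB1.3 between -0.18 and 0.68 and of PYK10 between -0.04 and 0.69. PSAG was at -0.14. The stem cell gene CLV3 was too dim to be tested. With median centring RBCS1A was at 0.90, LHCB1.3 at 0.91 and PYK10 at 0.99, and PRP3 was not called (0.45, limma adjusted p = 0.115). LHCB1.3 was not called with the scanner log ratio (0.26, limma adjusted p = 0.0783). When their probes were averaged, PYK10 (0.26), RBCS1A (0.25) and LHCB1.3 (0.12) were not called (limma adjusted p of 0.0621, 0.0872 and 0.227). With the slide as a fixed block these 4 genes had adjusted p of 0.0541 to 0.0645. The meristem gene STM was at -0.084, -0.098 and -0.13 on arrays 1 to 3 and at -0.94 on array 4, and was not called. A second STM probe gave 0.02 over the arrays. The summed signal of the 6 shoot markers was 672829 to 747478 units in the exposed channel and 549107 to 590335 units in the control channel. The median log2 ratio of the 6 was nearer 0, at 0.095 to 0.101 on arrays 1 to 3, -0.062 on array 4 and -0.015 over the 4 arrays, with 3 genes above and 3 below 0. The part of tissue proportions in the type-A values was not tested.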

How the data were processed

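The deposited scanner tables list linear intensity values of 45220 spots, 43803 of them gene spots, for each array, made with Agilent Feature Extraction (version 11.5.1.1 per the file headers, 8.5.1.1 per the submitters' processing notes). The software's deposited log10 ratio of Cy5 over Cy3 (corrected for background and dye, per the file headers) served, as log2, for an alternative. The deposited series matrix, described per the labels as log2 of Cy5 over Cy3, equalled log2 of the processed signals within 0.001 at all 45220 spots for array 1, but at 4, 0 and 0 spots for arrays 2 to 4, whose medians were -3.17, -3.17 and -3.19. It was not used for any comparison.

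Median spot and local background intensities were analysed with limma 3.58.1 (R 4.3.3). Background was corrected by normexp (offset 50), and log ratios were normalized by loess within each array with control and outlier spots at weight 0. Outlier gene spots (13 to 142 an array) were dropped, and repeat spots of a probe were averaged. Testing required that 1 channel stood well above background on 3 or more arrays (31106 of 38413 probes passed), and the brightest such probe stood for its gene. Each type-A ARR gene had 1 probe. Log ratios were tested against 0 with lmFit and eBayes, two-sided, with Benjamini-Hochberg adjustment over 22690 genes and a threshold of 0.05. The number of arrays limits the precision. Pairs of paralogs were compared by an exact sign-flip permutation test. The gene names used were found among the symbols or synonyms of an NCBI gene table (TAIR10.1). Of the type-A genes, it lists ARR5, ARR8, ARR16 and ARR17 under the symbols RR5, RR3, RR16 and RR17. Symbols of other genes also differ, such as HK3 for AHK3 and WOL for AHK4. No coordinates are given, since the file headers name another build. The script was tested on simulated data.

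The type-A members and the other lists were chosen with earlier results of these data known. Of each other list, the text names the called genes and the 2 uncalled ones of lowest p. The alternatives tried were other background corrections, median centring, the scanner log ratio, other filters, the mean of probes, array weights, the slide as a block, arrays 1 to 3 as 1 sample, and each array left out.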

Additional observations from a re-analysis of the deposited data

Results flagged for a closer look

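Of the 36 named genes that were tested, 3 had 1 array far from the other 3 by Dixon's test at the 95% level, which chance alone flags in about 1 of 20 groups. Among all tested genes 12.4% passed the same test, and in 86.2% of those the far array was array 4. ARR9 had a log2 ratio of 0.54 on array 4 and of -0.05 to -0.04 on the others. STM had -0.94 on array 4 and -0.13 to -0.08 on the others. IPT9 had 0.43 on array 3 and 0.19 to 0.20 on the others.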

How the results depend on the processing

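No type-A ARR gene was called by limma as reported, and the count stayed at 0 under 12 of 15 alternatives. It was 1 with the scanner log ratio, 4 with array weights and 0 to 3 over the fits without 1 array. Some of the 12 could hardly give another count. The fits without array 1, 2 or 3 and with arrays 1 to 3 as 1 sample called no gene at all. With the slide as a fixed block, 16 of 22690 genes were called. The median log2 ratio of the 9 genes was 0.086 as reported and 0.040 to 0.10 under the 15 alternatives. It was lowest without array 4 and with arrays 1 to 3 as 1 sample. Each shift was less than the SD of the medians on the single arrays, which ran from -0.092 to 0.15. That limit was wide beside 0.086, so it says little about how stable the median was. Genes called among all tested genes numbered 772 as reported, 1172 with plain subtraction, 216 with median centring (166 higher and 50 lower, beside 358 and 414 as reported), 292 with no filter, 8275 with array weights, 16 with the slide as a fixed block (added after the data were seen), 0 with arrays 1 to 3 as 1 sample (1317 at an unadjusted p below 0.05), and 0 to 7054 without 1 array; without array 1, 2 or 3 limma called 0, with 3580, 3873 and 3494 at an unadjusted p below 0.05. The 2 called genes of the other cytokinin lists became 1 with median centring, 1 with no filter, 19 with array weights, 0 with arrays 1 to 3 as 1 sample, 0 with the slide as a fixed block, and 0 to 16 without 1 array. Signs turned for ARR15 with median centring (0.0032) and without 1 array (-0.16 to 0.0094), ARR8 with the scanner log ratio (-0.011), ARR9 with array weights (-0.030) and without 1 array (-0.044 to 0.15), ARR16 with arrays 1 to 3 as 1 sample (-0.040), PSAG with median centring (0.20) and ARR22 with no filter (0.32), with arrays 1 to 3 as 1 sample (0.025) and without 1 array (-0.15 to 0.0039). None of these was called, and the cause was not tested. Without 1 array the pair differences ranged from -0.089 to 0.23 for ARR5 minus ARR6, from -0.067 to 0.015 for ARR7 minus ARR15 and from -0.11 to 0.081 for ARR8 minus ARR9. Each array pairs exposed with control RNA, and the log ratios are within-array differences; no further replicate block could be fitted. ARR3 was a dim spot, at 1.20-fold as reported and 1.31-fold with plain subtraction, and ARR17 was too dim to be tested.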

Other observations

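The 2 cytokinin hydroxylase genes, which make trans-zeatin precursors and of which CYP735A2 is induced by cytokinin, were named after their values were seen. CYP735A1 had log2 ratios of 0.20, 0.30 and 0.54 on arrays 1 to 3 and -0.11 on array 4. CYP735A2 had 0.50, 0.21 and 0.55 on arrays 1 to 3 and -0.43 on array 4. Neither was called with 4 arrays (limma adjusted p of 0.243 and 0.464), and both were called without array 4 (limma adjusted p of 0.00102 and 0.000235), as were 31.1% of all tested genes.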
